A study of Mus musculus with 14 samples.

Results

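The cytosolic ribosomal proteins were examined in 14 single retinal ganglion cells (RGCs), the neurons whose axons leave the retina in the optic nerve. Members were genes named Rpl or Rps with a number, together with Rplp0, Rplp1, Rplp2 and Rpsa, without ribosomal S6 kinases and pseudogenes. A member also needed a probe set (a group of array probes read as 1 value) that listed no other gene, and it took the one with the highest mean log2 signal. This left 49 members, 26 of the large subunit and 23 of the small subunit, of 18193 genes measured in that way. The gene table used for names held 89 symbols that fitted the naming rule, 84 of them protein-coding. Another 28 of these symbols were measured on the array only by probe sets that also listed other genes, and they could not be described one by one.

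All cells came from adult mice of mixed background that carried 1 copy each of PV-Cre, in which the parvalbumin gene Pvalb drives Cre recombinase, and of the Ai9 reporter, which makes tdTomato after Cre has acted. The PV-Cre parent is given as 129P2/OlaHsd and the Ai9 parent as C57BL/6 and 129 SV, while the methods describe a segregating C57BL/6 and 129P2 background for PV-Cre and congenic C57BL/6J for Ai9. The red label records past Pvalb expression, and bright cells were the easier ones to pick. Single tdTomato+ cells were taken from papain-treated retinas, their poly(A) RNA was copied from an oligo-dT primer and amplified by 35 cycles of PCR, and each library was hybridized to 1 Affymetrix mouse genome array. The cells formed 1 group with no control, no source tied a cell to an animal, and so no groups were tested. The arrays of the study were run at 2 facilities, and the sources used here do not say which cell went to which. They are named cell 1 to cell 14 here.

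Ribosomal proteins coat the RNA core of the ribosome and are needed in fixed proportions, because each ribosome holds 1 copy of nearly every one of them. The small subunit binds the messenger RNA and decodes it, and the large subunit joins the amino acids and passes the new chain out through a tunnel. Their messenger RNAs are short, abundant in most cells and, in mammals, usually begin with a run of pyrimidines (C and T in the DNA), the terminal oligopyrimidine or TOP motif, through which mTOR signalling controls their translation. In RGCs, which maintain very long axons, ribosomes and messenger RNAs for ribosomal proteins have also been found in the axon. In the frog Xenopus, ribosomal proteins made in RGC axons, Rps4x among them, join axonal ribosomes.

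The start of each gene holds a feature that the naming rule did not use. Start sequences came from RefSeq on assembly GRCm38.p6 and were matched by symbol for 43 of 49 members. The longest uninterrupted run of C and T was sought, on the sense strand, among runs touching the 10 bases on either side of the annotated start. The windows below hold 15 bases before the start and 15 bases from it, so that base 16 is the first transcribed base, and capitals mark the run. The first 5 are members with a clear run, chosen from steadily and rarely detected members alike. The next 4 set Rps27l and Rpl22l1 beside their parent genes Rps27 and Rpl22, and the last 2 are members with hardly any run.
Rpl35 (chr2:39005117-39005146, minus strand): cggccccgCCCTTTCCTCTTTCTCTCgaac
Rplp2 (chr7:141447636-141447665, plus strand): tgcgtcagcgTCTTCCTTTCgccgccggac
Rpl38 (chr11:114668565-114668594, plus strand): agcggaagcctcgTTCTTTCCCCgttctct
Rps18 (chr17:33955651-33955680, minus strand): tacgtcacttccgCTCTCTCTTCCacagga
Rps6 (chr4:86857353-86857382, minus strand): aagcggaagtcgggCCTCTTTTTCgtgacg
Rps27l (chr9:66946071-66946100, plus strand): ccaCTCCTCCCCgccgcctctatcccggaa
Rps27 (chr3:90213634-90213663, minus strand): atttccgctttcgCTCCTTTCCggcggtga
Rpl22l1 (chr3:28805493-28805522, plus strand): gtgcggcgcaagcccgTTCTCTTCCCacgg
Rpl22 (chr4:152324421-152324450, plus strand): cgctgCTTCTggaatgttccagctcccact
Rpl7l1 (chr17:46782642-46782671, minus strand): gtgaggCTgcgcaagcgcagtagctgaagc
Rps3a1 (chr3:86142654-86142683, minus strand): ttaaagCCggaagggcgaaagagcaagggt

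A run of at least 8 pyrimidines lay at the start of 20 of the 43 members (46.5%), against 15.8% of all 27025 genes with a start in the table and 13.4% of 67 mitochondrial ribosomal protein genes. The median run was 7 bases in members and 4 in all genes. On the opposite strand, at the same starts, no member held a run of 8, against 14.0% of all genes. Where a gene had several starts, the one with the longest run was used for members and for all genes alike. Because that choice was made on the sense strand, the opposite strand at the same starts is not an independent comparison. Among the 17 members with a start sequence that were detected in all 14 cells, 7 (41.2%) held such a run, close to the share over all members with a sequence. A run is a match of letters in a window and not a measured TOP motif, and an annotated start may lie some bases from the true one.

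The labelled cell type was checked against its markers, and 8 of them, Sncg, Nefl, Nefm, Nefh, Thy1, Stmn2, Gap43 and Slc17a6, were detected in every cell. Each cell held 9 to 13 of 13 measured RGC markers. Of 13 measured rod markers, 10 were detected in cell 3 and 10 in cell 6, against 1 to 4 in the other cells, although libraries had been screened for the absence of rhodopsin. Müller glia markers numbered 0 to 6 of 12 per cell, microglia markers 0 to 2 of 6 and amacrine cell markers 0 to 2 of 7. Detected probe sets numbered 4191 in cell 5 and 4362 in cell 13 but 11427 in cell 4 and 11910 in cell 12, of 45037 tested. The values are MAS5 signals, a linear intensity scaled to a common trimmed mean of 500.0 on every array, and each probe set has its own brightness, so levels were compared between cells and not between genes. A gene was called detected in a cell at 8 times the median signal of that array or more, which corresponded to a signal of 64.2 to 439.7 depending on the array.

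Most ribosomal proteins were detected in most of the cells. Of the 49 members, 20 (40.8%) were detected in all 14 cells, against 2.64% of all genes. At least 7 cells detected 38 members (77.6%), against 24.8% of all genes. No cell detected 4 members (8.16%), against 41.8% of all genes. The median member was detected in 13 cells and the median gene in 1. Without cells 5 and 13, which detected the fewest probe sets, 26 members (53.1%) were detected in every remaining cell, against 4.66% of all genes. Without the rod-rich cells 3 and 6 the number was 20 (40.8%), against 2.95% of all genes. The members between these ends were 18 genes detected in 7 to 13 cells and 7 genes detected in 1 to 6 cells.

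**Figure D1:**
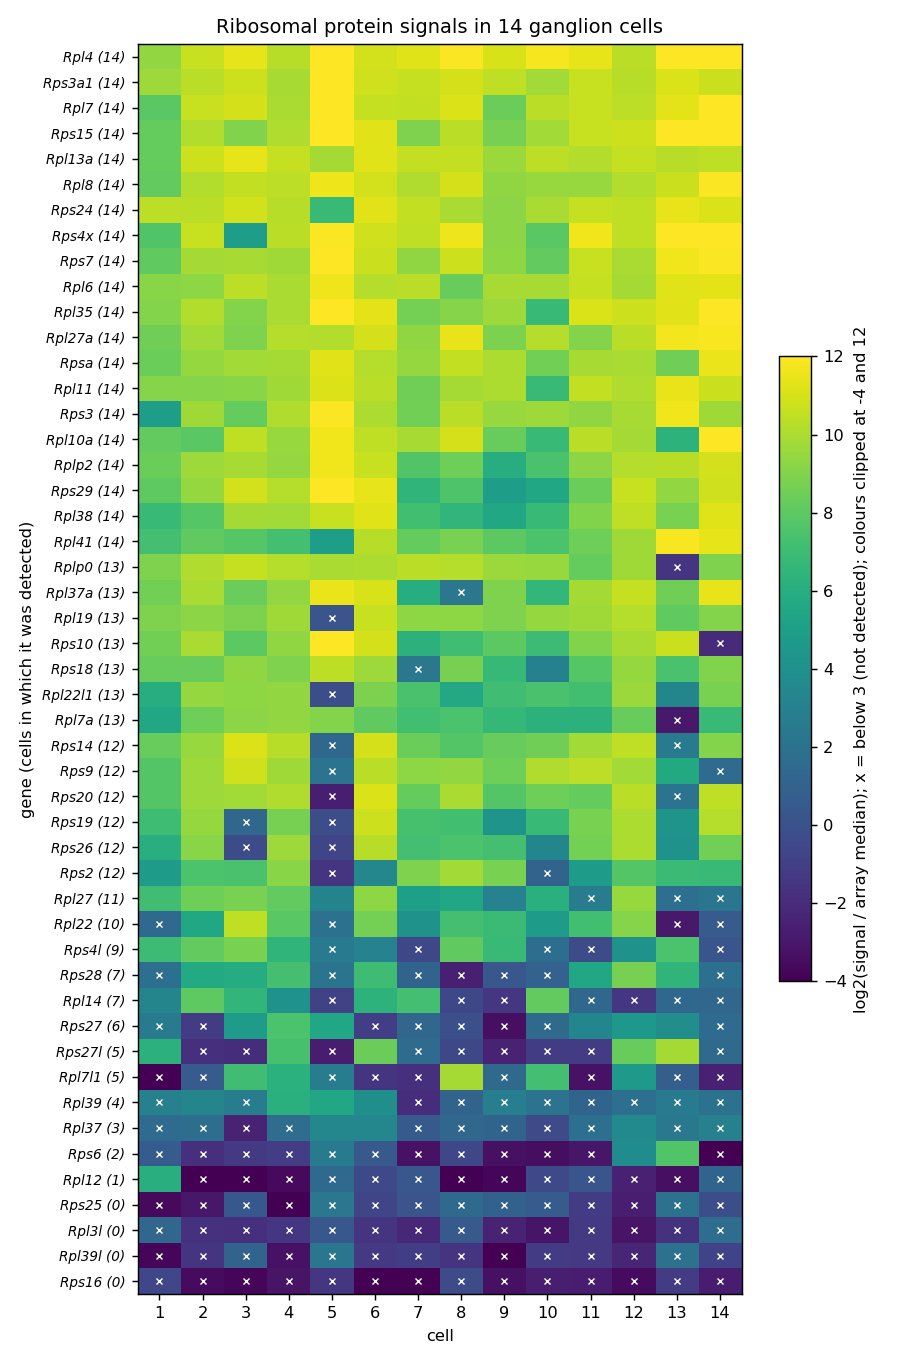
Each row is 1 of the 49 ribosomal protein genes, with the number of cells that detected it in brackets, each column is 1 cell, and colour is the log2 ratio of signal to the array median, with a cross where it lay below 3. Rows without a cross are the 20 genes detected in all 14 cells, and crosses gather in the columns of cells 5, 13 and 14 and in the lowest rows.

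Members detected everywhere are named here in the order of their mean log2 signal, which served only to pick them. Rpl4, which lines the tunnel of the large subunit, came first. Its signals were 13139 in cell 4 at the lowest, 38664 at the median and 126301 in cell 10 at the highest, and its log2 signal averaged 15.27 ± 0.84 (SD, n = 14). Rps3a1, a protein of the small subunit platform, had signals of 9960 in cell 4 to 43787 in cell 1 and averaged 14.57 ± 0.55 log2 units. In both genes cell 4 was lowest, a cell that was also among those with the most detected probe sets. Rpl7, a large subunit protein, averaged 14.55 ± 0.82, Rps15, close to the decoding site, averaged 14.33 ± 1.01, and Rpl13a, known outside the ribosome as a translational silencer of inflammatory messages, averaged 14.32 ± 0.72 log2 units.

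Rpl8, whose protein reaches towards the peptidyl transferase centre, was the steadiest member. Its signals were 10827 in cell 11, 20247 at the median and 31142 in cell 14, and its log2 SD of 0.47 was the fifth smallest among the 480 genes detected in all 14 cells. Rps3a1 ranked 13 and Rpsa ranked 20 in the same order. Rpsa, a small subunit protein that was first described as a laminin receptor, had signals of 5068 in cell 13 to 23547 in cell 14 and averaged 13.82 ± 0.60 log2 units. These 3 genes lay within a narrow band across cells that differed widely in how many probe sets they detected.

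Other members detected everywhere differed strongly between cells. Rps24, which is mutated in some patients with Diamond-Blackfan anaemia, an inherited failure of red cell production, had signals of 903 in cell 5, 22588 at the median and 74675 in cell 1. Rps4x, a small subunit protein encoded on the X chromosome, had 467 in cell 3, 23743 at the median and 86948 in cell 13. Rpl41, the smallest protein of the ribosome, had 256 in cell 5, 5861 at the median and 49822 in cell 13. For Rps24 and Rps4x a single cell lay far below all others, since the next signals up were 12354 for Rps24 in cell 9 and 8846 for Rps4x in cell 10. Rpl41 varied over the whole set of cells, with an SD of 1.81 log2 units.

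Rps29 and Rplp2 varied together. Rps29, a zinc-binding protein of the small subunit head, had signals of 1397 in cell 7, 2755 in cell 8, 658 in cell 9 and 1667 in cell 10, with 4924 to 43430 in the other cells. Rplp2, an acidic stalk protein that helps recruit translation factors, had 3087 in cell 7, 5158 in cell 8, 1312 in cell 9 and 6282 in cell 10, with 7414 to 26670 in the other cells. The 4 lowest cells were thus the same for both genes. The other 2 single-gene probe sets of Rps29 gave the same 4 lowest cells, with at most 615 there and at least 2123 elsewhere in one, and at most 1229 there and at least 1691 elsewhere in the other. Rpl38 partly shared the pattern, with Pearson's r = 0.87 to Rps29 and 0.82 to Rplp2, and was lowest in cells 2, 7, 8 and 9. Rpl35 was lowest in cells 3, 7, 8 and 10, and Rps7, by both its probe sets, in cells 4, 7, 9 and 10. A second probe set of Rpl41 was lowest in cells 5, 7, 8 and 9, while its chosen one was lowest in cells 2, 3, 4 and 5. No other member detected in all 14 cells had exactly cells 7, 8, 9 and 10 as its 4 lowest. How many of the other genes detected in all 14 cells had the same 4 lowest cells is not given here, so the pattern cannot be called particular to these members. The pattern of cells 7 to 10 was picked out after the values were seen. The 4 cells had 10483, 7200, 9307 and 6129 detected probe sets, spread through the range of all cells, and 1 or 2 rod markers each, and what sets them apart was not tested. Their animals and array facilities are not known here.

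**Figure D2:**
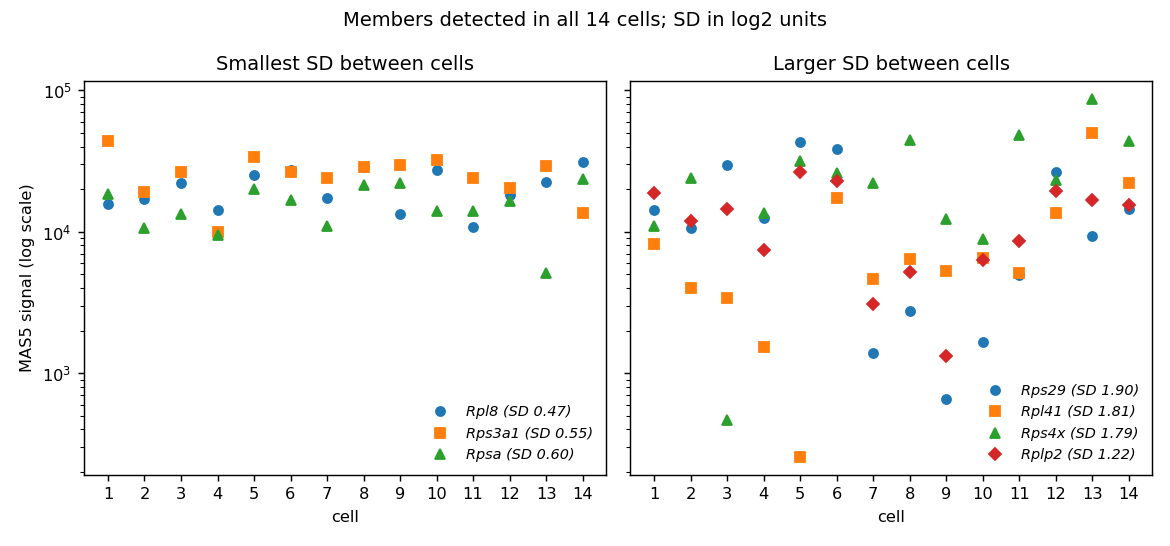
Points are MAS5 signals on a log scale in cells 1 to 14 for the 3 members with the smallest log2 SD (left) and for 4 members with a larger one (right). Rpl8, Rps3a1 and Rpsa stayed between 5068 and 43787, while Rps29 and Rplp2 were lowest in cells 7, 8, 9 and 10, and Rps4x and Rpl41 fell to 467 in cell 3 and 256 in cell 5.

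Several members were bright in nearly every cell and at background in 1 or 2. Rplp0, the protein that anchors the stalk to the ribosome and is often used as a reference gene, had a signal of 4.75 in cell 13 and of 3910 to 27451 in the other 13 cells. Rps10, a protein of the small subunit head, had 1.97 in cell 14 and at least 1205 elsewhere. Rpl7a, on the solvent side of the large subunit, had 1.82 in cell 13 and at least 907 elsewhere. For each of these genes the chosen probe set was at background in 1 cell and well above the detection limit in all others. The cells concerned, 13 and 14, detected few probe sets, 4362 and 5828. Rpl19, part of a bridge between the subunits, had 9.53 in cell 5 and at least 3715 in the others.

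Rps14, Rps9 and Rps20 were each missed by 2 cells. Rps14, whose loss in humans contributes to the anaemia of the 5q- syndrome, had 20.6 in cell 5 and 81.7 in cell 13, against 2963 to 34812 in the remaining cells. Rps20, also in the small subunit head, had 1.30 in cell 5 and 57.0 in cell 13, against 4333 to 31535 elsewhere. Rps9, a protein that helps keep decoding accurate, had 24.1 in cell 14 and 34.3 in cell 5, against 711 to 40459 elsewhere. By the chosen probe sets, cell 5 was thus among the missing cells of all 3 genes. With any single-gene probe set Rps9 was detected in 13 cells, so 1 of its 2 missing calls rested on the probe set chosen. Rps19 and Rps26, both Diamond-Blackfan anaemia genes in humans, were missed by cells 3 and 5, and Rps2, at the messenger entry channel, by cells 5 and 10.

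The step from detected to undetected was not always wide. Rpl27 was detected in 11 cells, with a lowest detected signal of 75.3 in cell 5, where the array median was low, and a highest undetected signal of 95.0 in cell 11. For Rps27, Rpl39, Rpl37 and Rps4l the highest undetected signal also exceeded the lowest detected one, so that the call in single cells depended on the array's own background. The number of cells for Rpl39 was 9 at 4 times the array median and 2 at 16 times, against 4 at 8 times, and for Rpl37 it was 5 and 0, against 3. A call of not detected therefore does not show that the messenger RNA was absent.

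Members detected in fewer than 4 cells included some of the proteins that every ribosome carries. Rps6, the main phosphorylated protein of the small subunit and the classic read-out of S6 kinase activity, reached 221 in cell 12 and 2688 in cell 13 and at most 85.4 in the other cells. Rpl12, at the base of the stalk, reached 3753 in cell 1 and at most 26.9 elsewhere. Rpl37 passed in cells 5, 6 and 12 with 87.9 to 202. These were single-gene probe sets, and most other probe sets that list the same genes together with further genes were detected more widely. Of 9 such shared probe sets for Rps6, each was detected in 7 to 14 cells, and the 2 for Rpl12 were detected in 13 and 14 cells. The 3 for Rpl37 were detected in 4, 12 and 14 cells.

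Rps16, Rps25, Rpl3l and Rpl39l were detected in no cell. Rps16, which contacts the transfer RNA, had a highest signal of 36.0 and Rps25, known for its part in translation from viral internal ribosome entry sites, one of 57.3. The shared probe sets of these 2 genes were again detected widely, in 13 cells for each of 2 that list Rps16 and in 14 cells for the 1 that lists Rps25. Signal of a shared probe set cannot be assigned to 1 gene, and ribosomal proteins have many processed pseudogenes, so neither kind of probe set settles the level of Rps16 or Rps25 in these cells. Rpl3l and Rpl39l, paralogues known from muscle and testis, had no shared probe set and highest signals of 136 in cell 1 and 52.6 in cell 13.

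The low values gathered in 1 type of probe set. Affymetrix marks probe sets by suffix, where a plain _at was designed to a single transcript, _a_at to several transcripts of 1 gene, and _s_at and _x_at may match further transcripts in full or in part. Of the 16 members measured by a plain probe set, the median was detected in 5.5 cells. At least 7 cells detected 7 of them (43.75%), against 21.3% of all genes measured by a plain probe set. All 4 members with no detection were among the 16 (25.0%), against 45.3% of all genes measured by a plain probe set. The 19 members with an _a_at probe set had a median of 14 cells and the 12 with an _x_at probe set one of 13.5. Over all genes the medians were 1 cell for plain, 4 for _a_at and 4 for _x_at probe sets. Whether the low values reflect the transcript or the probes was not tested.

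Probe sets of the same member often disagreed. Of 24 members with several single-gene probe sets, 9 had probe sets that differed by at most 2 cells and 11 had probe sets that differed by at least 10. Rps3, Rpsa, Rps4x and Rpl27a each had 1 probe set detected in all 14 cells and another detected in none. For Rps29, Rps7, Rps15 and Rpl7 every probe set was detected in all 14 cells. Over all 105 single-gene probe sets of the members, 34 (32.4%) were detected in every cell and 16 (15.2%) in no cell. At least 7 cells detected 72 of them (68.6%), against 15.99% of all probe sets tested. How far the probe sets of other genes disagreed is not given here, so the disagreement cannot be called particular to ribosomal proteins.

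**Figure D3:**
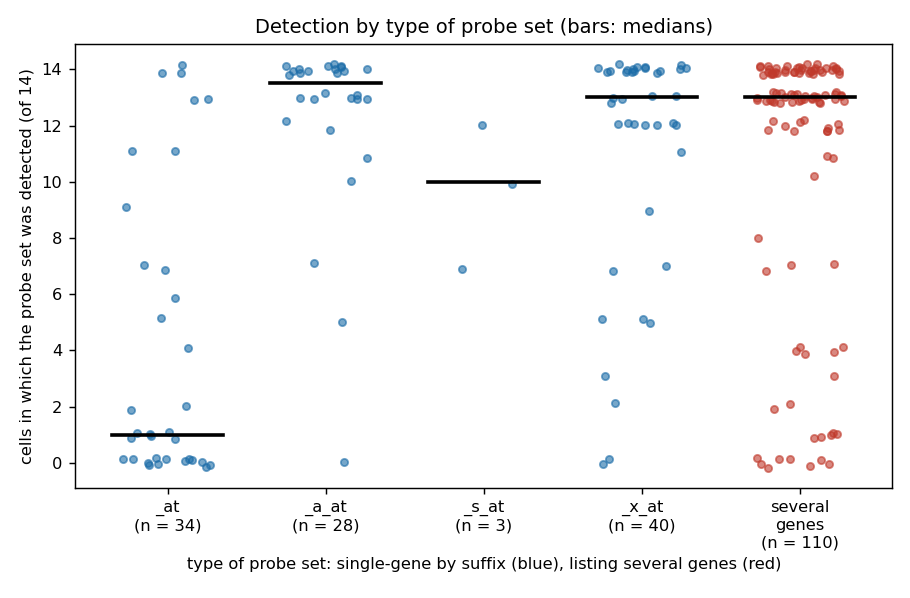
Each point is 1 probe set for ribosomal proteins, placed by the number of cells that detected it (slightly jittered), with single-gene probe sets by suffix in blue and those listing several genes in red, and bars at the medians. Plain single-gene probe sets had a median of 1 cell, against 13.5 for _a_at, 13 for _x_at and 13 for the 110 probe sets that list several genes.

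Paralogues, some tissue-restricted and some broadly expressed, were compared with their parent genes by detection. Rpl22l1 was detected in 13 cells and its parent Rpl22, by its chosen probe set, in 10, all of which also held Rpl22l1. These are RNA-binding proteins that can replace each other, and in mice Rpl22 is known to repress Rpl22l1. Signals of Rpl22l1 were 7.31 in cell 5 and 137 to 12349 in the others, and those of Rpl22 were 1.77 in cell 13 to 21497 in cell 3. The chosen probe sets showed the paralogue without the parent in cells 1, 13 and 14. Another single-gene probe set of Rpl22 was detected in cell 1, with 1367, and in cell 5, with 37506, so that with any probe set Rpl22 was detected in 12 cells. By that count the paralogue alone remained in cells 13 and 14, and the parent alone in cell 5. The 3 probe sets of Rpl22 disagreed, however. The one with 37506 in cell 5 had 4.91 in cell 3, where the chosen one was highest. In cell 5 the chosen one had 32.1 and the third 70.7, just above the limit of 65.3 there. Which cells held Rpl22 therefore depended on the probe set.

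Rps27l showed the sharpest on-off pattern among the paralogues. Its transcript, a p53 target, had signals of 1705 to 12270 in cells 1, 4, 6, 12 and 13 and at most 46.4 in the other 9 cells, and its 3 probe sets were each detected in 5 cells. Rps27, its parent, was detected in 6 cells, 3 of them shared with Rps27l, and its signals, up to 1809 in cell 4, lay close to the detection limit of each array in several cells. The shared probe set that lists Rps27 was detected in 13 cells. Rpl7l1 was detected in 5 cells, 3, 4, 8, 10 and 12, with 413 to 13230 there and at most 60.3 elsewhere, beside Rpl7 in all 14. Its 3 probe sets disagreed, since the other 2 were detected in 1 and 0 cells. Rps4l was detected in 9 cells beside Rps4x in 14, and Rpl39l in none beside Rpl39 in 4.

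**Figure D4:**
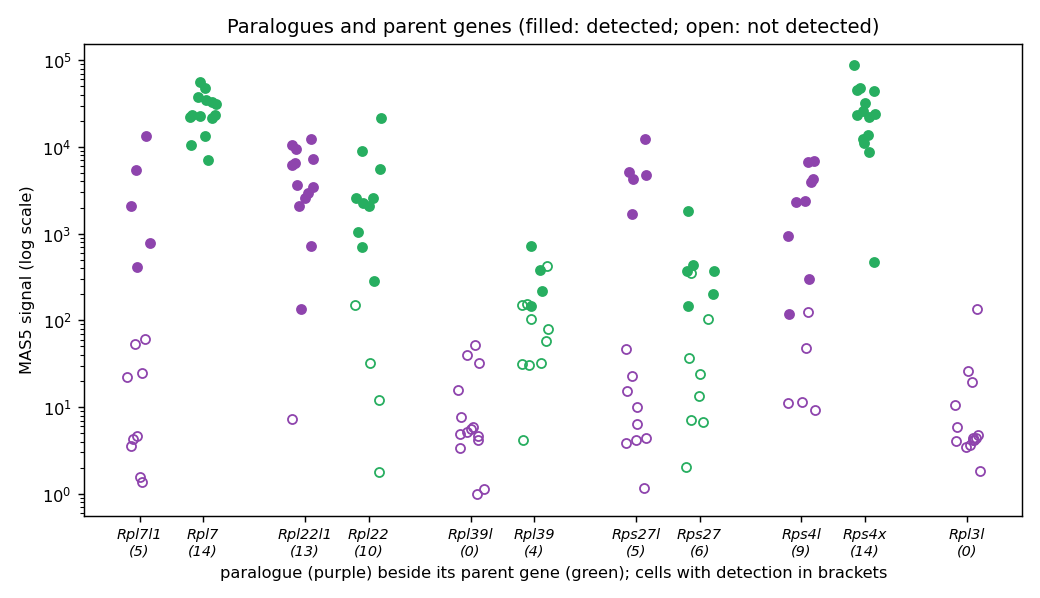
Points are the MAS5 signals of the 14 cells on a log scale for each paralogue (purple) and its parent gene (green), filled where detected, with the number of detecting cells in brackets. Rps27l splits into 5 cells at 1705 or more and 9 cells at 46.4 or less, and Rpl22l1 was detected in 13 cells beside Rpl22 in 10; no single-gene probe set measured Rpl3.

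By place in the ribosome, no site stood out as missing as a whole. Of the stalk, Rplp2 was detected in 14 cells, Rplp0 in 13 and Rpl12 in 1. Rpl11, which binds the 5S RNA with Rpl5 and restrains Mdm2 when ribosome assembly fails, was detected in all 14 with signals of 4119 in cell 10 to 37936 in cell 13. Around the exit tunnel, Rpl4, Rpl35 and Rpl38 were detected in 14 cells, Rpl19 in 13, Rpl22 in 10 and Rpl39 in 4. At the messenger entry and decoding sites, Rps3 and Rps15 were detected in 14 cells and Rps2 in 12. Of a chosen list of 10 genes mutated in Diamond-Blackfan anaemia in humans, which is not a full list, 7 were measured. Of the 7, 3 were detected in all 14 cells (42.9%, beside 40.8% of all members and 2.64% of all genes) and the median in 13.

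The 2 subunits were detected to the same extent on average. A cell detected 75.3% of large subunit members and 74.2% of small subunit members, a mean difference of 1.05 percentage points with an SD of 11.5 between cells. The large subunit had the higher share in 7 of 14 cells. The gap was widest in the shallow cells and ran in both directions there, with 18 of 26 large and 11 of 23 small subunit members in cell 5, and 15 of 26 large and 19 of 23 small subunit members in cell 13.

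Cells differed in how much of the ribosomal set they showed. The number of members detected averaged 36.6 ± 3.79 per cell (SD, n = 14), with 29 in cell 5, 31 in cell 14 and 34 in cell 13 at the low end and 42 in cells 4 and 12 at the high end. Of the 18 members detected in 7 to 13 cells, cell 5 missed 12, cells 13 and 14 missed 7 each, and cells 2, 4 and 6 missed none. The remaining cells missed 1 to 3 each. The gaps thus fell largely in 3 cells, which also detected few probe sets.

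Members detected per cell went up with all probe sets detected per cell (Pearson's r = 0.774 and Spearman's rho = 0.748, 14 cells). Both counts come from the same array, so the value is a description. Without cells 12 and 4, the 2 cells farthest from the median depth, r was 0.634. Mitochondrial ribosomal proteins, 76 genes for the separate ribosome inside mitochondria, followed depth more closely with r = 0.891. They were detected in 8 cells at the median. At least 7 cells detected 54 of them (71.1%), against 24.8% of all genes, and none was detected in all 14, against 2.64% of all genes. Their share per cell spanned 23.7% in cell 5 to 90.8% in cell 12, while that of the cytosolic members spanned 59.2% to 85.7%.

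**Figure D5:**
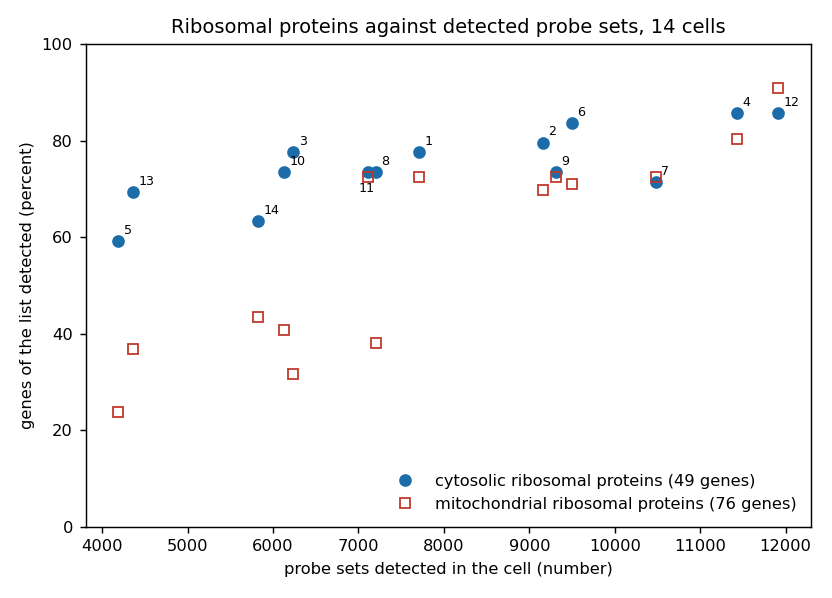
Each point is 1 cell (numbered), with the number of detected probe sets on the x axis and the percent of genes of the list detected on the y axis, for 49 cytosolic (blue circles) and 76 mitochondrial ribosomal protein genes (red squares). Cytosolic members stayed between 59.2% and 85.7%, and mitochondrial ones spanned 23.7% to 90.8%.

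The level of the always detected members moved in the opposite direction. Their median log2 signal was 13.37 in cell 4 at the lowest and 15.06 in cell 13 at the highest, and it fell with the number of detected probe sets (r = -0.63, 14 cells). Cell 12, which detected the most probe sets, went against this fall with 14.325, above the median of 14.275 over cells. The other 460 genes detected in all 14 cells moved the same way. Their medians were 13.02 in cell 4 and 13.26 in cell 12, and 14.63 in cell 5 and 14.555 in cell 13. The fall with depth was therefore not particular to the ribosomal members. Over the cells the 2 medians had r = 0.671, and 0.408 without cells 5 and 13 (12 cells). Relative to those genes, the ribosomal members were higher by 0.41 ± 0.40 log2 units (SD, n = 14). This difference was 1.30 in cell 6 and 1.06 in cell 12 at the high end and -0.16 in cell 7 at the low end. Because each probe set has its own brightness, only its change between cells can be read.

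How the spread of the members compared with that of other genes depended on which genes were included. The median SD of log2 signal was 1.94 for the 49 members and 2.21 for all 18193 genes, an order that turned round once a pseudocount of 32 damped the background values (1.77 for members and 1.06 for all genes). An SD above 2.5, a level the study's methods required both in these cells and in other retinal cells not used here before clustering, was reached by 21 members (42.9%) and by 43.1% of all genes, many of which no cell detected. Among genes detected in at least 4 cells, the median SD was 2.04 for 42 members and 3.54 for all 6883, and 45.2% of the members and 85.3% of the genes lay above 2.5. The 2 sets lay closer where detection was alike. In genes detected in 7 to 13 cells the median SD was 3.27 for 18 members and 3.63 for all 4027, with 88.9% and 91.6% above 2.5. Among genes detected in all 14 cells the median SD was 0.98 for 20 members and 1.16 for the other 460. Members with large SDs were thus mainly those that some cells missed, such as Rps27l with 4.80, Rps20 with 3.97 and Rps10 with 3.54.

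Members did not vary as a block. Over the 861 pairs of 42 members detected in at least 4 cells, the median Pearson's r on log2(signal + 32) was 0.033, beside 0.086 over all pairs of 6883 genes. Of the pairs, 28 (3.25%) had r above 0.7, against 1.25% over all genes, and 401 (46.6%) had r below 0, against 39.7%. For the 20 members detected in all 14 cells the median r was 0.12, beside 0.12 for the other 460 genes. Pairs within the large subunit (0.039), within the small subunit (0.022) and between them (0.033) had like medians. The points of each correlation share array, depth and amplification, so these values are descriptions.

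A few pairs were closely matched. Rpl22l1 and Rps14 had r = 0.95, Rps14 and Rps20 had r = 0.94, and Rplp2 and Rps29 had r = 0.93 over 14 cells. Without cells 5 and 13 the first pair had r = 0.74, the second r = 0.46 and the third still 0.93. Rps14 and Rps20 were thus matched largely through the 2 shallow cells that missed both, whereas Rplp2 and Rps29 were both low in cells 7 to 10. The lowest values were -0.73 for Rpl22l1 and Rps7, -0.71 for Rpl35 and Rpl7l1, and -0.70 for Rps14 and Rps7. Of these, Rpl35 and Rpl7l1 kept -0.70 without cells 5 and 13, while the pairs with Rps7 had -0.37 and -0.19.

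Other genes that serve the ribosome ranged from widely to sparsely detected. Fau, which encodes a ubiquitin-like protein fused to a small subunit protein and falls outside the naming rule, was detected in all 14 cells. Of 13 measured genes with other TOP messages, all were detected in at least 7 cells (against 24.8% of all genes) and 4 in all 14 (30.8%, against 2.64%), namely the elongation factors Eef1a1 and Eef2, the growth-related Tpt1, and Naca, which binds new chains at the tunnel exit. Of 24 ribosome assembly factors, 1 was detected in all 14 cells (4.17%, near the share of all genes), namely Nop56 of the box C/D RNA-protein complexes. At least 7 cells detected 14 of them (58.3%), and their median was 7.5 cells. Of 11 measured genes that signal growth to the ribosome, 8 (72.7%) were detected in at least 7 cells, with a median of 9 cells. Of the 11, the GTPase Rheb, which activates mTOR, was detected in 14 cells and the kinase Mtor in 13, while Eif4ebp1, a translational repressor under mTOR, was detected in none.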

How the data were processed

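The authors hybridized each amplified single-cell library to 1 array and deposited a linear signal intensity per probe set from the MAS5 algorithm, in a release not given in the sources used here. A 2% trimmed mean of 500.0 on each array showed the scaling by a single factor. Of 45101 probe sets, 64 were controls and 45037 were used. In the array annotation 34945 listed 1 gene symbol, 932 listed several and 9160 had no name here, and symbols were updated through a RefSeq gene table of assembly GRCm38.p6, with 34741 matched by gene number.

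Detection counts, means and SDs of log2 signals, and Pearson's r on log2(signal + 32) were computed with Python 3.11.15, numpy 2.4.6, pandas 2.3.3 and scipy 1.17.1, and figures were drawn with matplotlib 3.10.9. The code was tested on simulated data. The cells formed 1 group without named animals, so no test was made, SDs describe the spread between cells, and precision is limited by the number of arrays. No interval is given for a signal.

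Genes named with values were the 8 members highest in mean log2 signal of those in all 14 cells, the 8 with the widest gap between detected and undetected signals among those in 4 to 13 cells, members in fewer than 4 cells, paralogue pairs, stalk and 5S proteins, Rps6, Rpsa, and the 3 pairs with the highest and the 3 with the lowest r. Others are examples of a functional site, a listed pathway, or a pattern picked after its values were seen. Members and lists were chosen with earlier results of these data known. Alternatives covered the detection threshold, the choice of probe set, quantile normalization, the pseudocount, and leaving out pairs of cells.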

Additional observations from a re-analysis of the deposited data

Results flagged for a closer look

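Probe sets that list a ribosomal protein gene together with other genes were outside the main measurement, because their signal cannot be given to 1 gene, and they carried widespread signal. Of 110 such probe sets, 89 (80.9%) were detected in at least 7 cells, against 15.99% of all probe sets tested. In all 14 cells 39 were detected and in none 8, counts for which the share over all probe sets is not given here. Their median was 13 cells, whereas other probe sets that list several genes had a median of 1. They listed 43 symbols of the naming rule, 28 of which had no other probe set. For 9 members a shared probe set was detected in more cells than the single-gene one, among them Rps16, Rps25, Rpl12, Rps6, Rpl37 and Rpl39.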

How the results depend on the processing

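The widest shifts came with plain probe sets only, a setting that changes the genes as well as the probe sets. It measured 26 members, and 10 of them were detected in at least 7 cells (main value 38 of 49), 3 in every cell (20 of 49) and 7 in no cell (4 of 49), while the mean share of members detected per cell was 37.4% (74.8%). Of the 26, 38.5% were detected in at least 7 cells, 11.5% in every cell and 26.9% in no cell. Over all genes in that setting the shares were 21.3%, 1.95% and 44.9%. By their chosen probe sets, the same 26 members numbered 17 in at least 7 cells, 7 in every cell and 4 in no cell, with a mean share of 62.9%. The number detected in no cell was also 2 at 4 times the array median (4.08%, against 23.4% of all genes). It was 2 after quantile normalization as well (4.08%, against 27.4%). Under thresholds of 4 and 16 times the median and a fixed signal of 1000, with quantile normalization, any single-gene probe set or the mean of a gene's probe sets, and without 2 cells, members in at least 7 cells numbered 35 to 40 and members in every cell 15 to 26. Members in at least 7 cells were thus 71.4% to 81.6%, against 15.3% to 30.7% of all genes. Members in every cell were 30.6% to 53.1%, against 1.65% to 4.66% of all genes. Single members moved more. With the mean of a gene's probe sets Rps3 was detected in 7 cells (main value 14), Rps18 in 8 (13) and Rpl7l1 in 2 (5), and at a signal of 1000 Rpl27 was detected in 7 (11) and Rpl39 in 0 (4). Counts of cells shifted beyond 1.5 times for 0 to 7 of 49 members per setting. The median pairwise r ranged over 0.025 to 0.12 and the subunit difference over 1.05 to 2.46 percentage points, and the relation with depth had r = 0.775 at a signal of 1000. Leaving out cells 5 and 13 was added after seeing the data for the named pairs of genes. The causes of these shifts were not tested. No paired analysis was possible because all cells formed 1 group. No depth in reads exists for arrays, and a signal under the threshold gives only a bound on what a cell held.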
